A study of Mus musculus with 24 samples.

Results

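The genes described here are 9 genes of bile duct epithelium and of the ductular reaction: Sox9, Krt7, Krt19, Krt23, Epcam, Cldn4, Cldn7, Tff3 and Cd24a. They were taken by name from the array design, where 12 of the 56605 non-control probes carried one of these symbols, out of 37325 gene symbols in all. RNA from the livers of 24 female mice of the strain sv129/C57, 8 weeks old, was hybridised to Cy3 arrays, 1 array per mouse. The 4 groups of 6 mice were wild-type mice given water (WT control), wild-type mice given the mycotoxin Fumonisin B1 (WT FB1), mice lacking both liver X receptors, LXR alpha and LXR beta, given water (KO control), and such mice given the toxin (KO FB1). FB1 was given at 10 mg per kg body weight per day for 1 month. The label names the mice as lacking the receptors and gives neither the deleted parts nor the breeding, so litter mates are not identified. FB1, made by Fusarium moulds on maize, inhibits ceramide synthases, and the LXRs are nuclear receptors for oxysterols.

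Cholangiocytes, the cells that line bile ducts, are marked by simple epithelial keratins, by the adhesion protein EpCAM, by claudins of the tight junction and by the transcription factor SOX9. In a damaged liver, small ducts and cells of intermediate type can spread from the portal tracts into the lobule, which is called the ductular reaction. Hepatocytes can also switch on some of the same genes, SOX9 and CD24 among them. In whole-liver RNA, more cells of a type and more RNA per cell cannot be told apart.

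Each array value is the log2 of a spot's processed signal minus the 75th percentile of its array. A level of 0 is therefore a spot as bright as that percentile, and a difference of 1 is a 2-fold change. Levels of different probes were not compared. The 75th percentile of the processed signal, before scaling, lay between 490 and 685 intensity units, and 58.7% to 64.5% of spots were well above background. The targeted receptors followed the labels: Nr1h3, which encodes LXR alpha, lay between 4.71 and 5.06 on the 12 WT arrays and between -5.13 and -2.56 on the 12 KO arrays, and Nr1h2, which encodes LXR beta, lay between 4.02 and 4.34 against 0.31 and 0.80. Albumin (Alb), the defining hepatocyte transcript, lay between 9.25 and 9.82 on all arrays.

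The sequences below are the 60-base probes of 5 of the genes. They are shown because they fix what each value reads, and because the Sox9 probe printed here gave a smaller difference than the other Sox9 probe. Each can be read without a stop codon in at least 1 frame, is printed 5′ to 3′ on the sense strand and is placed on the mouse build mm9 as the files give it. The Sox9 probe is at chr11:112646642-112646701 on the plus strand.
Sox9: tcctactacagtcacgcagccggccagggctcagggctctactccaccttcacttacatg
Krt7, at chr15:101253718-101253777, plus strand: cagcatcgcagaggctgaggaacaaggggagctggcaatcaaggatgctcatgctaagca
Krt19, at chr11:100002392-100002451, minus strand: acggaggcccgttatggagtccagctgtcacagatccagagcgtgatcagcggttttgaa
Epcam, within chr17:88048972-88049800, plus strand: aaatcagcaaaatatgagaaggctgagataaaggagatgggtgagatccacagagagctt
Cldn4, at chr5:135422135-135422194, minus strand: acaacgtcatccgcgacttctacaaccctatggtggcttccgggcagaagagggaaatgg
The Epcam probe is given a span longer than its 60 bases, so it reads across an intron. The other probes were at chr11:112647560-112647619 (Sox9, the brighter probe), chr11:99339393-99339452 (Krt23), chr11:69781255-69781314 and chr11:69778772-69778831 (Cldn7), chr17:31262279-31262338 (Tff3), and chr10:43303932-43303991 and chr10:43303706-43303765 (Cd24a).

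Of the 12 probes, 10 could be tested, and they covered 8 of the 9 genes. Cldn4, which encodes a tight junction protein, stayed near background: it was well above background on 2 arrays of WT controls, 0 of WT FB1, 1 of KO controls and 2 of KO FB1, and its measured values ran from -7.03 to -5.22 over all arrays with all 4 groups overlapping. No difference is given for it. One Cldn7 probe was well above background on 0 of 24 arrays. Its sequence matched the bases 151 to 92 before one of the RefSeq starts of Cldn7 (GRCm38.p6), so it lies upstream of that start, whereas the Cldn7 probe used below was well above background on all 24 arrays. Where a gene had more than 1 tested probe, the brighter one was used and the other is given beside it.

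Tff3 and Sox9 rose with FB1 in KO livers, and the remaining tested ductal genes did not pass the test there. In KO controls Tff3 lay far below its WT level. With FB1, Tff3 reached a like range in both genotypes, while Sox9 and, slightly, Cldn7 were higher in KO than in WT. No ductal gene passed the test with FB1 in WT livers. All tests are limma's moderated test with Benjamini-Hochberg adjustment over 22088 genes, called at an adjusted p under 0.05, and ± is the standard error of a difference.

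**Figure D1:**
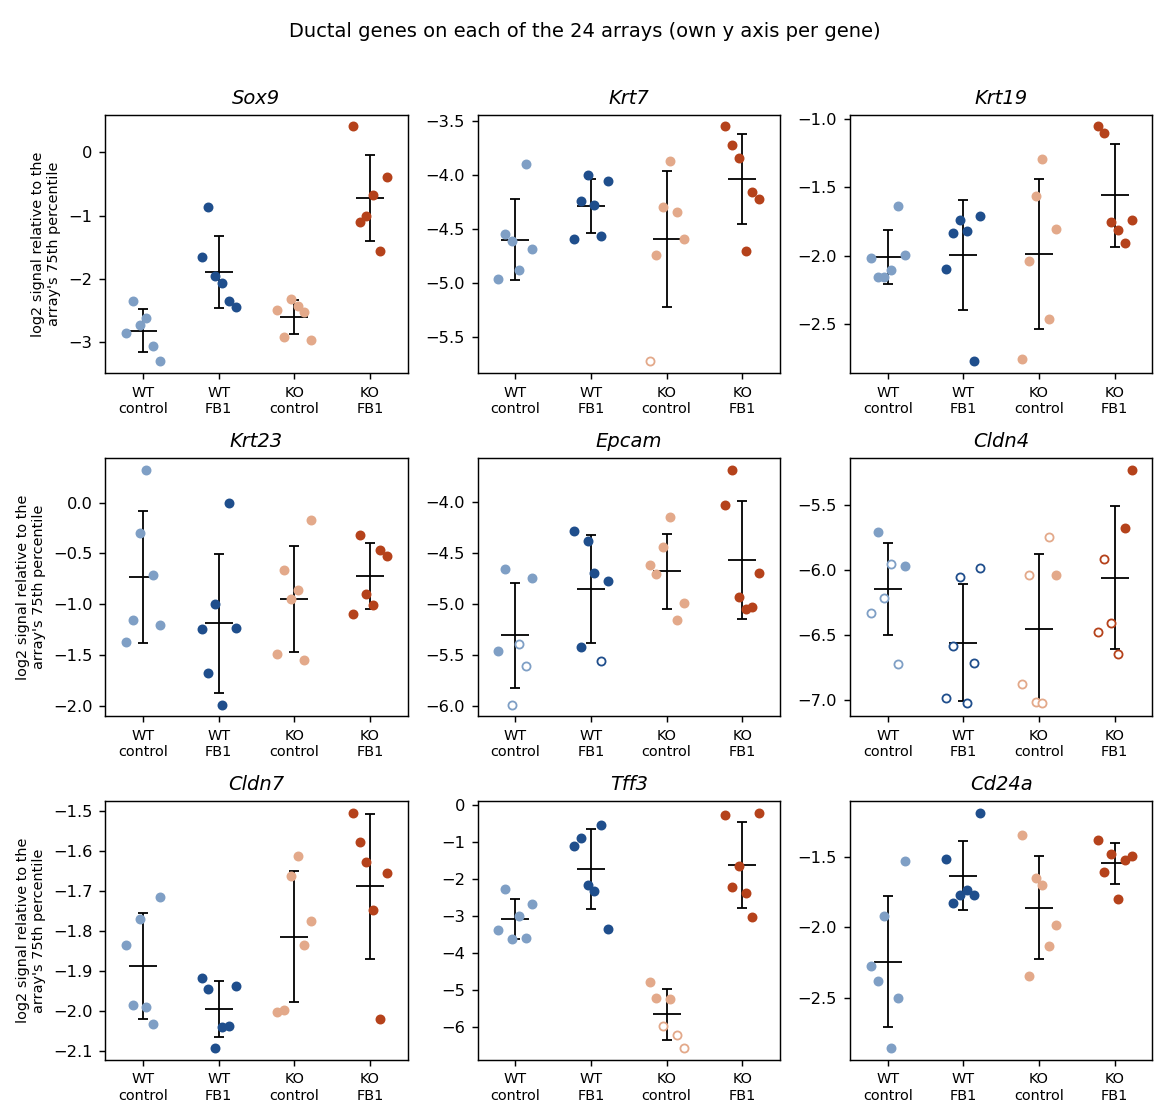
Level of each of the 9 genes on each of the 24 arrays (y axis, log2 signal relative to the array's 75th percentile, own axis for each gene) in the 4 groups of 6 mice (x axis); filled points were well above background, open points were not, and the bars give the mean and 1 SD. The Tff3 levels of KO controls lie below those of all other groups, and the Sox9 levels of KO FB1 lie above those of both control groups.

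Sox9 encodes a transcription factor that is needed for bile duct development and is switched on in periportal and injured hepatocytes. Its level had a lowest, median and highest value of -3.30, -2.79 and -2.34 in WT controls. In WT FB1 these were -2.45, -2.01 and -0.86. In KO controls they were -2.96, -2.51 and -2.32, and in KO FB1 -1.56, -0.83 and 0.41. All 6 KO FB1 arrays were above all 6 KO controls and all 6 WT controls, while WT FB1 overlapped every other group. The lowest and highest WT FB1 arrays were replicates 6 and 2, and the highest KO FB1 arrays were replicates 1 and 6.

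With FB1, Sox9 rose 3.70-fold in KO livers (log2 difference 1.89 ± 0.27, n = 6 per group, adjusted p = 1.2e-05). In WT livers the difference was 0.92 ± 0.27 (adjusted p = 0.068). That value passed the test without WT FB1 replicate 6 (1.04, adjusted p = 0.0498), and it was 0.07 ± 0.16 by the other probe. Under FB1 the KO level was 2.25-fold above the WT level (1.17 ± 0.27, adjusted p = 0.00186), and without FB1 the genotypes differed by 0.21 ± 0.27 (adjusted p = 0.695, 95% interval -0.36 to 0.77). The response in KO minus that in WT was 0.96 ± 0.38 (adjusted p = 0.116), and without WT FB1 replicate 2 it was 1.17 (adjusted p = 0.0401). A dependence of the Sox9 response on genotype was thus not established with all arrays. In the order of group means, the control groups did not differ beyond their spread, WT FB1 came next, and KO FB1 was highest.

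The Sox9 probe whose sequence is printed above gave the same calls for Sox9 with smaller differences. It ranged from -3.83 to -3.22 in WT controls, from -3.88 to -2.87 in WT FB1, from -3.78 to -3.60 in KO controls and from -3.26 to -2.32 in KO FB1. All KO FB1 arrays were above all KO controls on it too. Its difference with FB1 in KO was 0.77 ± 0.16 (limma over all tested probes, adjusted p = 0.000531), and under FB1 KO was above WT by 0.60 ± 0.16 (adjusted p = 0.00525). The response in KO minus that in WT was 0.69 ± 0.22 (adjusted p = 0.0561). Both probes showed the rise in KO, while the WT difference of 0.92 was seen on 1 of the 2 probes.

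Tff3 encodes a small trefoil peptide secreted with mucus by intestinal goblet cells and by bile ducts. Its level had a lowest, median and highest value of -3.61, -3.18 and -2.27 in WT controls. In WT FB1 these were -3.35, -1.62 and -0.53. In KO controls they were -6.56, -5.59 and -4.76, with the probe well above background on 3 of the 6 arrays, and in KO FB1 they were -3.02, -1.93 and -0.20. The KO controls lay below all other arrays without overlap, and the 3 other groups overlapped each other.

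Without FB1, Tff3 was 5.94-fold lower in KO than in WT (log2 difference -2.57 ± 0.49, adjusted p = 0.000622). With FB1 it rose 16.3-fold in KO (4.03 ± 0.49, adjusted p = 1.83e-06), and in WT the difference was 1.36 ± 0.49 (adjusted p = 0.139). The response in KO exceeded that in WT by 2.67 ± 0.70 (adjusted p = 0.0185). Under FB1 the genotypes differed by 0.10 ± 0.49 (adjusted p = 0.905), with a 95% interval from -0.92 to 1.11 that does not exclude a 2-fold difference. Since 3 KO controls were near background, their values are partly bounds: with dim arrays set to the lowest signal well above background on the same array, the KO rise was 3.84, the difference of controls -2.38 (adjusted p = 0.000882) and the difference of responses 2.48 (adjusted p = 0.0213). Another background correction, normexp, was run with an offset of 50 intensity units added to each signal, which shrinks log2 differences between dim signals. With it the KO rise was 1.71 (adjusted p = 0.00014). The difference of controls was -0.78 (adjusted p = 0.112) and that of responses 0.82 (adjusted p = 0.271), and these differences did not pass. In the authors' deposited values the KO rise was 2.28 (adjusted p = 3.9e-05). There the difference of controls was -1.20 (adjusted p = 0.0287), which passed, and the difference of responses 1.26 (adjusted p = 0.137), which did not.

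The 24 arrays lay on 3 slides with 2 arrays of each group on each. By slide, the Tff3 rise with FB1 in KO was 3.46, 3.65 and 4.98 on slides 1, 2 and 3, and the Sox9 rise was 1.09, 1.89 and 2.68. The Tff3 difference between KO and WT under FB1 was -1.28 and -1.03 on slides 1 and 2 and 2.60 on slide 3. The Sox9 difference under FB1 was 0.82, 0.43 and 2.27. Slide 3 held KO FB1 replicates 1 and 6, which were highest of their group for both genes, and WT FB1 replicates 4 and 6, which were the lowest of theirs for Tff3. For Sox9, WT FB1 replicate 6 was the lowest of its group. The mean level over 27 other duct epithelium genes was 0.75 and 0.64 on KO FB1 replicates 1 and 6, against 0.22 to 0.81 on the other 4 KO FB1 arrays. With slide as a block, the Sox9 difference between genotypes under FB1 still passed (adjusted p = 0.00246), while on slide 1 or slide 2 alone, with 2 arrays per group, it did not (adjusted p = 0.157 and 0.576).

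**Figure D2:**
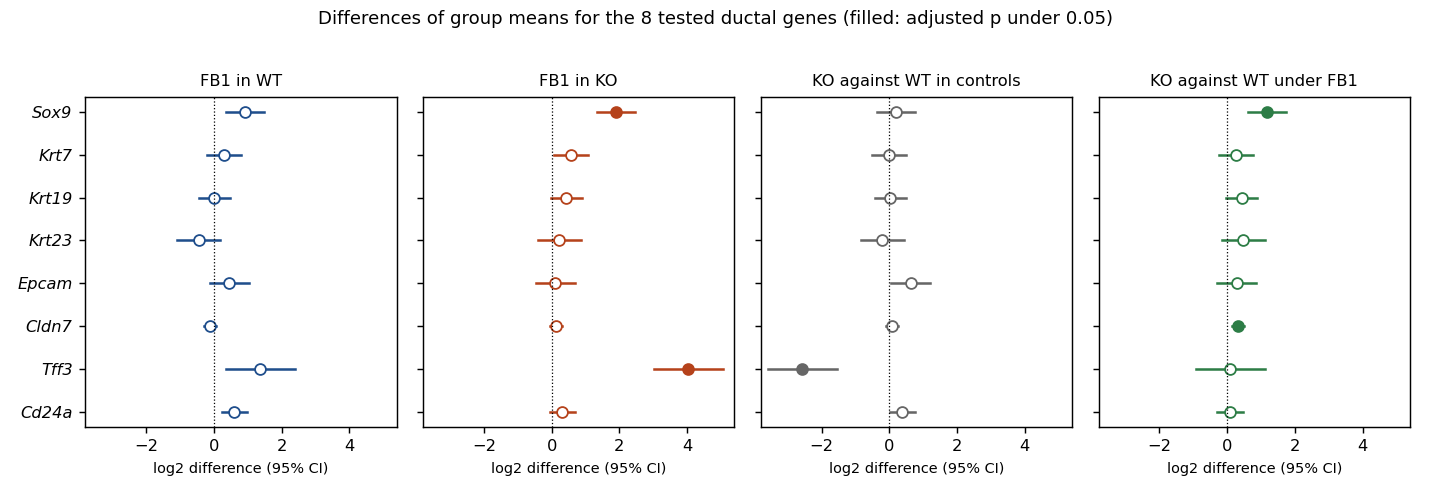
Log2 differences of group means (points, x axis) with 95% intervals (lines) for the 8 tested genes (y axis) in 4 comparisons of 6 against 6 arrays; filled points passed limma's test at an adjusted p under 0.05. Tff3 is filled for FB1 in KO (4.03) and for the control genotypes (-2.57). Sox9 is filled for FB1 in KO (1.89) and for the genotypes under FB1 (1.17), and Cldn7 for the genotypes under FB1 (0.31).

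Krt7 and Krt19, a type II and a type I keratin that fill cholangiocytes and serve as standard duct markers, did not pass the test in any comparison. Krt7 had a lowest, median and highest level of -4.97, -4.65 and -3.90 in WT controls. In WT FB1 these were -4.59, -4.26 and -4.00, in KO controls -5.73, -4.47 and -3.87, and in KO FB1 -4.71, -4.00 and -3.54. All groups overlapped. The Krt7 difference with FB1 was 0.56 ± 0.24 in KO (adjusted p = 0.0664, 95% interval 0.06 to 1.07) and 0.31 ± 0.24 in WT (adjusted p = 0.525). Krt19 ranged from -2.16 to -1.64 in WT controls, from -2.78 to -1.71 in WT FB1, from -2.76 to -1.29 in KO controls and from -1.90 to -1.05 in KO FB1, again with overlap. Its difference with FB1 was 0.43 ± 0.22 in KO (adjusted p = 0.126, 95% interval -0.03 to 0.89) and 0.02 ± 0.22 in WT (adjusted p = 0.982).

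The KO result of both keratins turned on single arrays. KO control replicate 4 was the highest of its group for Krt7 (-3.87) and for Krt19 (-1.29). Without it both genes passed with FB1 in KO, Krt7 at 0.71 (adjusted p = 0.0222) and Krt19 at 0.57 (adjusted p = 0.041). Krt7 also passed without KO FB1 replicate 4 (0.70, adjusted p = 0.026) and with slide as a block (0.56, adjusted p = 0.0472). The intervals allow a rise of about 2-fold in Krt7, so a lack of change is not shown.

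Krt23, a type I keratin that is induced in damaged hepatocytes, spread widely within every group. It ranged from -1.37 to 0.32 in WT controls, from -1.99 to 0.00 in WT FB1, from -1.55 to -0.18 in KO controls and from -1.10 to -0.32 in KO FB1. Its differences with FB1 were -0.45 ± 0.31 in WT (adjusted p = 0.456) and 0.23 ± 0.31 in KO (adjusted p = 0.58), both smaller than the range within the groups.

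Epcam, the epithelial adhesion molecule, was dim. It was well above background on 3 WT control arrays, on 5 of WT FB1 and on all 12 KO arrays. It ranged from -5.99 to -4.66 in WT controls, from -5.55 to -4.28 in WT FB1, from -5.16 to -4.14 in KO controls and from -5.05 to -3.68 in KO FB1. The difference with FB1 was 0.45 ± 0.28 in WT (adjusted p = 0.401) and 0.11 ± 0.28 in KO (adjusted p = 0.783), and that between the control genotypes was 0.63 ± 0.28 (adjusted p = 0.138). None of these passed.

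Cldn7 encodes a claudin of epithelial junctions that binds EpCAM. Its level had a lowest, median and highest value of -2.03, -1.91 and -1.72 in WT controls. In WT FB1 these were -2.09, -1.99 and -1.92, in KO controls -2.00, -1.81 and -1.61, and in KO FB1 -2.02, -1.64 and -1.51. KO FB1 replicate 5 was the lowest of its group and the only one of the 6 within the WT FB1 range. Under FB1, Cldn7 was 1.24-fold higher in KO than in WT (0.31 ± 0.09, adjusted p = 0.00834), and the difference was 0.27, 0.24 and 0.41 on the 3 slides. On no slide alone did it pass (adjusted p = 0.418, 0.526 and 0.121). FB1 itself gave -0.11 ± 0.09 in WT (adjusted p = 0.536) and 0.13 ± 0.09 in KO (adjusted p = 0.254), and the difference of the responses was 0.23 ± 0.12 (adjusted p = 0.244).

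Cd24a encodes a small glycosylated surface protein of progenitor and duct cells that is also made by B cells and young neutrophils. It had a lowest, median and highest level of -2.86, -2.33 and -1.53 in WT controls. In WT FB1 these were -1.83, -1.75 and -1.19, in KO controls -2.35, -1.84 and -1.34, and in KO FB1 -1.80, -1.51 and -1.38. WT control replicate 6 was the highest of its group and the only one of the 6 above any WT FB1 level. The difference with FB1 was 0.61 ± 0.18 in WT (adjusted p = 0.0728) and 0.31 ± 0.18 in KO (adjusted p = 0.175). Without WT control replicate 6, Cd24a passed with FB1 in WT (0.75, adjusted p = 0.0121), and KO controls passed as higher than WT controls (0.53, adjusted p = 0.0368). The second Cd24a probe gave 0.41 ± 0.17 in WT (adjusted p = 0.206) and 0.42 ± 0.17 in KO (adjusted p = 0.0498), so the second probe passed with FB1 in KO, where the first did not. Both probes gave positive differences in both genotypes.

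The calls are set here against those over all genes. With FB1 in WT, 0 of 8 were called, where 2.06% of all tested genes were called higher and 0.824% lower. With FB1 in KO, 2 of 8 were called higher and 0 lower, where the shares of all genes were 16.5% and 24.6%. Between the controls, 0 were called higher in KO and 1 lower, against 7.21% and 8.02%. Under FB1, 2 were called higher in KO and 0 lower, against 14.5% and 18.3%. Over all genes the balance of that comparison turned with the scaling, from 3213 higher and 4033 lower calls to 3876 and 3581 by quantile normalisation and 3381 and 3073 in the authors' deposited values. For the difference of the responses, 1 was called higher and 0 lower, against 4.46% and 4.84%.

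The counts without overlap read alike. Groups of the 8 genes did not overlap for 0 genes with FB1 in WT (2.33% of all genes), for 2 with FB1 in KO (18.4%), for 1 between controls (7.93%) and for 0 between genotypes under FB1 (15.2%). The median log2 difference of the 8 genes was 0.38 with FB1 in WT and 0.37 with FB1 in KO, where the medians of all genes were -0.03 and -0.08. It was 0.05 between controls and 0.30 under FB1, where those of all genes were 0.01 and -0.03. The comparisons that share a group are not independent of each other.

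Within groups, the genes varied together only in part. Over 24 arrays, with each group's mean removed, the 28 pairs of genes had Pearson correlations from -0.31 to 0.75 with a median of 0.11. Krt7 and Krt19 had the highest value (r = 0.75, permutation p = 0.00014, adjusted over 28 pairs 0.00392; Spearman's rho = 0.70, adjusted permutation p = 0.019). Without the 2 arrays farthest from the median of Krt7 it was 0.61. Sox9 and Tff3 had r = 0.60 (adjusted permutation p = 0.1) and rho = 0.58 (adjusted permutation p = 0.0734), which did not pass the adjustment. The correlation of the 2 keratins is one between mice of the same group and none of the other 27 pairs passed that threshold.

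**Figure D3:**
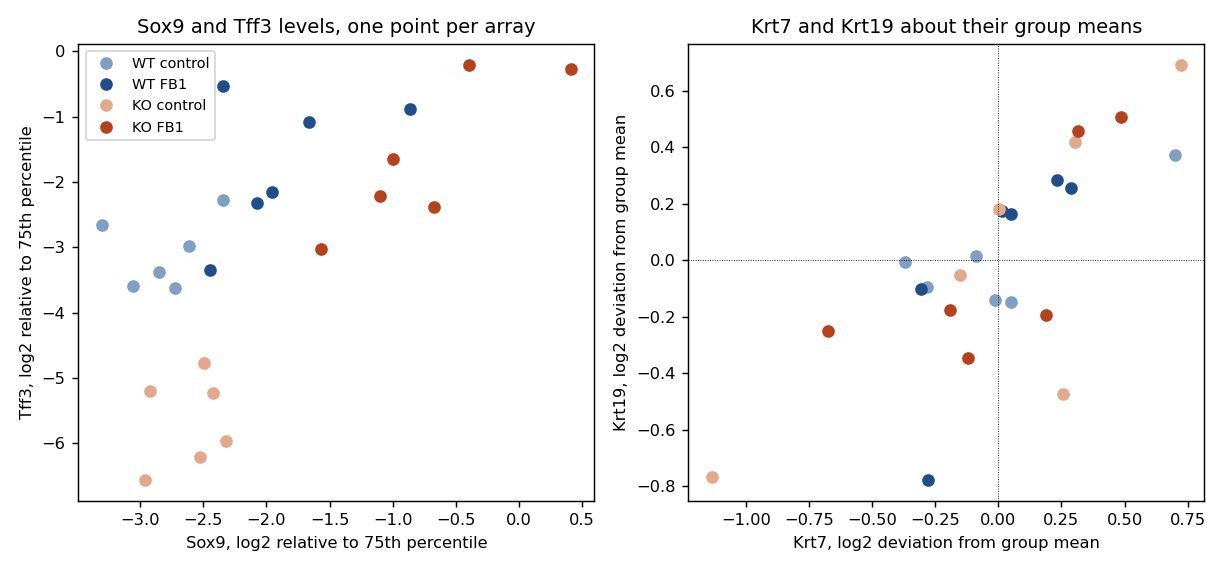
Left, Tff3 level (y axis) against Sox9 level (x axis) on the 24 arrays, both in log2 relative to the array's 75th percentile; right, Krt19 (y axis) against Krt7 (x axis) as log2 deviations from the group mean. On the left the KO controls sit lowest for Tff3 and KO FB1 replicates 1 and 6 at the upper right; on the right the points follow a rising line (r = 0.75).

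The genes whose pattern over the 24 arrays was nearest to each called gene were found by the root-mean-square difference of centred log2 levels. For Sox9 they were Gm4907 (0.39), Ddr1 (0.41), a collagen receptor kinase of epithelia, and Slc6a8 (0.41), the creatine transporter. For Tff3 they were Lpl, lipoprotein lipase (0.79), Gldn (0.96) and Tmem54 (0.96), all farther away than the Sox9 neighbours were from Sox9. Gldn and Tmem54 were dim in the controls, with mean levels of -6.97 and -7.01 in WT and -8.04 and -7.80 in KO. With FB1 their means were -4.93 and -4.99 in WT and -4.29 and -4.88 in KO. For Cldn7 they were Pitpna, Necap2 and Ptpn6 (0.11 each), at a distance that mostly measures how little these genes varied. Ddr1 ranged from -2.88 to -2.36 in WT controls, from -2.27 to -1.36 in WT FB1, from -3.02 to -2.40 in KO controls and from -1.11 to 0.14 in KO FB1. Lpl ranged from 0.97 to 2.63, from 2.92 to 4.60, from -0.08 to 0.94 and from 3.69 to 4.33 in the same 4 groups. Both were chosen for this likeness, so their order of groups is a description.

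Of 30 further genes of duct epithelium, 27 were tested, and their response to FB1 in KO was divided. In KO livers 9 rose, 2 fell and 16 did not pass, with a median difference of 0.37. Of all tested genes, 16.5% were called higher and 24.6% lower in this comparison. Those that rose were Ddr1 (2.19 ± 0.20), E-cadherin Cdh1 (1.27 ± 0.27), Krt8, Bicc1 (1.07 ± 0.13), Tspan8 (0.97 ± 0.25), Krt18, the protease St14 (0.52 ± 0.13), Elf3 and Slc5a1. Slc4a2, the anion exchanger of bile bicarbonate secretion (-0.35 ± 0.07), and the water channel Aqp1 (-0.70 ± 0.18) fell. Elf3, an epithelial transcription factor, and the glucose carrier Slc5a1 are counted among the 9 without a size. They entered the test through KO FB1, where they were high, so the filter favoured these calls. Elf3 was well above background on 4 and Slc5a1 on 3 of the 6 KO controls.

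Spp1 and Cftr, both typical duct genes, did not pass with FB1 in KO. Spp1, osteopontin, differed by 0.32 ± 0.16 in KO (adjusted p = 0.11) and the chloride channel Cftr by -0.31 ± 0.20 (adjusted p = 0.221). Krt8 and Krt18, the keratin pair of all simple epithelia and the one that hepatocytes also make, rose 2.16-fold (1.11 ± 0.24, adjusted p = 0.000723) and 1.81-fold (0.85 ± 0.19, adjusted p = 0.000986). Krt8 ranged from 5.55 to 6.15 in KO controls and from 6.15 to 7.41 in KO FB1. In WT the same pair differed by 0.45 ± 0.24 (adjusted p = 0.317) and 0.35 ± 0.19 (adjusted p = 0.331).

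With FB1 in WT 1 of the 27 genes was called higher, Prom1, a progenitor surface protein, and 0 were called lower. The shares of all genes were 2.06% and 0.824%. No size is given for Prom1, since its level was highest in WT FB1 and it was well above background on 3 of 6 WT controls. The count of 1 held within 1.5 times in 9 of 28 other settings and ranged from 0 to 2. The responses themselves differed between genotypes, larger in KO, for Ddr1 (1.49 ± 0.28, adjusted p = 0.0025) and Bicc1 (0.71 ± 0.18, adjusted p = 0.0162), both well above background on all arrays. Elf3 and Slc5a1 were called too, but they entered the test through KO FB1, where they were high, and were well above background on only some arrays of every other group, so no size is given for them. Between controls, Anxa4 (0.64 ± 0.06), Mmp7 (no size given, since it was well above background on 1 of 6 WT controls) and Tspan8 (0.95 ± 0.25) were higher in KO, and Onecut1 (-1.56 ± 0.39) and Pkhd1 (-0.47 ± 0.13) lower. Under FB1, 13 were called higher in KO and 5 lower. Elf3 and Slc5a1 are among the 13, and the filter favoured these calls, since both entered through KO FB1. Mmp7, dim in WT controls, is also among the 13, and Prom1, highest in WT FB1, is among the 5. No size is given for them here either. The shares of all genes called higher and lower were 7.21% and 8.02% between controls, and 14.5% and 18.3% under FB1.

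**Figure D4:**
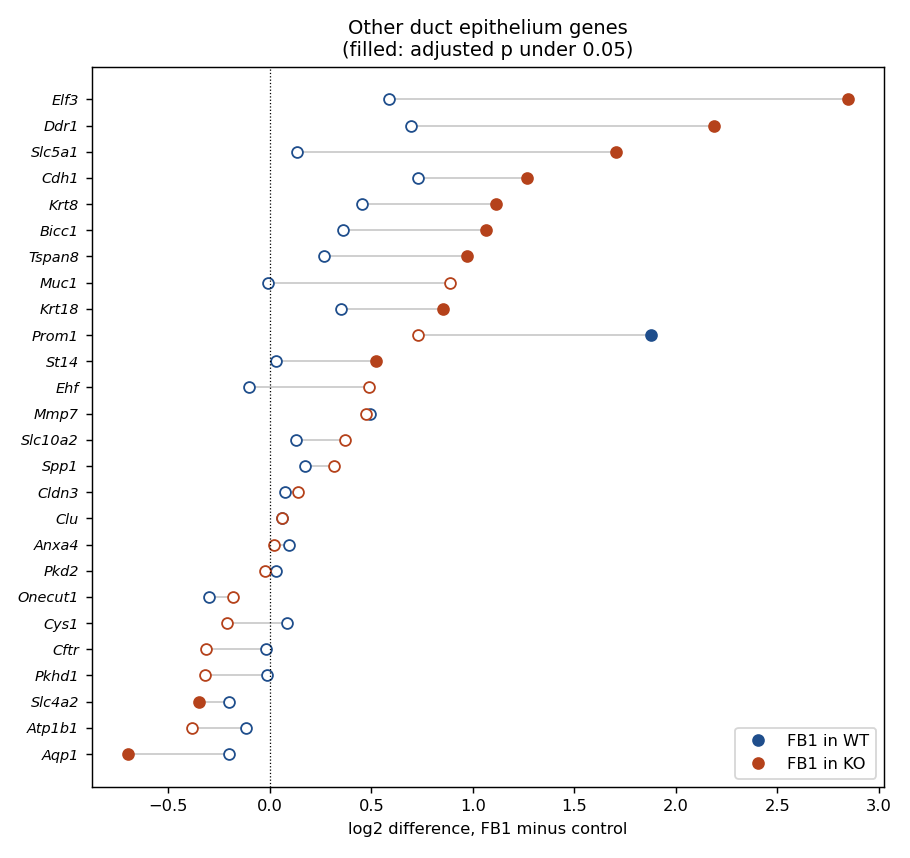
Log2 difference between FB1 and control (x axis) for 26 of the 27 further duct epithelium genes (y axis) in WT (blue) and KO (red), with 6 arrays per group; filled points passed limma's test at an adjusted p under 0.05. In KO 9 genes are filled above 0 and 2 below, while Spp1 and Cftr are open. Of the filled genes, Elf3 and Slc5a1 entered the test through KO FB1, and Prom1 had its highest level in WT FB1.

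Signals that drive duct growth were followed with lists of pathway genes. Of 9 tested genes of ductular growth signals, 3 rose and 1 fell with FB1 in KO. The shares of all genes were 16.5% higher and 24.6% lower. The called genes were the TWEAK receptor Tnfrsf12a (1.87 ± 0.26, 3.65-fold), its ligand Tnfsf12 (0.54 ± 0.09) and hepatocyte growth factor Hgf (0.37 ± 0.12), and the HGF receptor Met (-0.40 ± 0.09). The Tnfrsf12a response was larger in KO than in WT by 1.68 ± 0.36 (adjusted p = 0.00615). In WT 0 of the 9 passed, where 2.06% of all genes were called higher and 0.824% lower. Between controls 4 were called lower in KO and 0 higher, where the shares of all genes were 8.02% and 7.21%. They were Tnfsf12 (-0.80 ± 0.09), Fgfr2 (-0.30 ± 0.08), Met (-0.28 ± 0.09) and Itgb8. Itgb8 was not well above background on any KO array. It thus entered the test only through a WT group, so the filter favoured its call and no size is given.

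Of 20 tested targets of YAP, the Hippo pathway effector that favours duct identity, 7 rose and 2 fell with FB1 in KO, with a median of 0.27. Ccdc80 (1.31 ± 0.14), Tgfb2 (1.26 ± 0.16) and Axl (1.02 ± 0.17) led those that rose, and Amotl2 (-0.70 ± 0.13) and Lats2 (-0.37 ± 0.08) fell. In WT 0 of the 20 passed. The shares of all genes called higher and lower were 16.5% and 24.6% in KO, and 2.06% and 0.824% in WT. Of 14 tested genes of the Notch pathway, which directs bile duct formation, 1 rose and 3 fell with FB1 in KO, shares below those of all genes (16.5% higher and 24.6% lower), so the counts say nothing particular of the pathway. Hey1, a Notch target, rose by 0.54 ± 0.14 in KO and by 0.58 ± 0.14 in WT, while Notch4 (-0.80 ± 0.14), Maml1 (-0.31 ± 0.06) and Notch1 (-0.78 ± 0.31) fell in KO.

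Of the other keratins 18 of 52 on the array were tested. With FB1 in KO, 16.5% of all tested genes were called higher and 24.6% lower. With FB1 in KO 7 rose and 2 fell, among them Krt31 (2.14 ± 0.25) and Krt85 (1.32 ± 0.22), keratins known from hair, which rose beside Krt8 and Krt18. Of 12 tested claudins outside the 9 genes, Cldn15 (0.78 ± 0.23) and Cldn24 (0.70 ± 0.20) rose and Cldn12 (-0.29 ± 0.07) fell, where 16.5% of all genes were called higher and 24.6% lower.

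Markers of other cells also moved with FB1 in KO, and their part in the Sox9 and Tff3 results was not tested. The shares of all genes called higher and lower with FB1 were 16.5% and 24.6% in KO, and 2.06% and 0.824% in WT. Of 15 hepatocyte markers 9 fell and 0 rose, and their mean level per array ranged from 7.81 to 8.06 in KO controls and from 7.26 to 7.94 in KO FB1. In WT 0 of the 15 passed. Of 6 tested markers of mesothelium, the cell layer on the liver surface that also makes keratins, 4 rose (Wt1, Msln, Lrrn4 and Upk1b). Their mean level ranged from -5.16 to -2.73 in KO controls, from -3.26 to -2.00 in KO FB1, from -4.43 to -2.79 in WT controls and from -4.22 to -2.61 in WT FB1. Bnc1 was not well above background on every array of any group. All 5 tested B cell markers rose with FB1 in KO, with mean levels from -2.44 to -1.74 in KO controls and from -1.68 to -0.94 in KO FB1. Cd79a was not tested.

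Of 9 neutrophil markers 1 rose and 1 fell with FB1 in KO, and 1 rose in WT, a count that ranged from 0 to 4 over 28 other settings. Their mean level per array ran from -2.67 to -0.32 in WT controls, from -0.90 to 0.93 in WT FB1, from -2.83 to -1.66 in KO controls and from -2.22 to -1.24 in KO FB1. Of 12 macrophage markers, 6 rose and 1 fell in KO and 5 rose in WT. For every list here, the shares of all genes called higher and lower were 16.5% and 24.6% in KO, and 2.06% and 0.824% in WT. All 10 proliferation genes rose with FB1 in both genotypes, with medians of 2.22 in WT and 2.53 in KO. Of 4 tested pancreatic acinar markers 3 fell in KO, and Cpa1, Cpb1, Prss1 and Pnlip did not pass the filter on dim probes. Of 6 tested erythroid markers 2 fell in KO.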

How the data were processed

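Each deposited scanner file holds spot intensity values made by Agilent Feature Extraction 10.10.1.1, background-subtracted and detrended within the array, per the file headers. A deposited table holds the authors' log2 values, and the submitters' processing notes name limma. It served as an alternative, since its normalisation and filter are not given in those sources. Main values were the log2 of the processed signal after scaling each array to its own 75th percentile, with 64 to 121 outlier spots per array set to missing and 0 saturated. Testing was limited to the 33417 probes that stood well above background throughout at least 1 group (outlier spots apart) and had 4 or more values in each. A gene was its brightest tested probe (22088 genes). The model, 4 group means without covariates, used limma (version 3.58.1, R version 4.3.3). Intervals cover 95%. Correlations used 100000 permutations within groups. Figures used Python 3.11.15 and matplotlib 3.10.9. The genes and lists were chosen with earlier results of these data known, so list counts are descriptions. Named in each list were up to 3 called genes with the smallest adjusted p per comparison, always Krt8, Krt18, Spp1, Cftr and Alb, and the 3 genes of nearest pattern to each called gene. Further list genes named, with or without a size (Elf3, Slc5a1, Cdh1, Tspan8, St14, Aqp1, Slc4a2, Prom1, Tnfsf12, Hgf, Met, Fgfr2, Notch1, Lats2 and others), were chosen after their values were seen. A gene of the duct list is counted there but not reported here by name. Labels call the samples separate mice. Replicates of a group correlated at 0.984 to 0.994 with 0 identical pairs. The number of arrays limits the precision. Probe names are those of the array design.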

Additional observations from a re-analysis of the deposited data

Results flagged for a closer look

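In the 32 sets of 6 arrays checked (8 genes in 4 groups), 2 held an array set apart from the other 5, and chance gives about 1 in 20. Both were Krt19 on a replicate 5. WT control replicate 5 stood above its group at -1.64, and WT FB1 replicate 5 stood below its group at -2.78. The response of Tff3 to FB1 differed between genotypes, by 2.67 more in KO than in WT on the log2 scale (limma interaction term, adjusted p = 0.0185). On slides 1, 2 and 3 this difference was 1.87, 1.33 and 4.80.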

How the results depend on the processing

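The rise of Tff3 with FB1 in KO passed the test in all 15 other settings that could be run (1.71 to 4.98) and without each array in turn (3.75 to 4.31), and that of Sox9 in 16 of 17 (0.77 to 2.68), the exception being slide 1 alone (1.09, adjusted p = 0.0643). The number of ductal genes called changed as follows. With slide as a block it was 3 with FB1 in KO (Krt7 added, adjusted p = 0.0472). With normexp it was 0 between controls and 0 for the difference of the responses. In the authors' deposited values it was 0 for that difference. Among probes well above background on every array, which leaves out Tff3, it was 1 with FB1 in KO, 0 between controls and 0 for the difference. On slide 1 alone it was 1 with FB1 in KO and 0 between controls, under FB1 and for the difference. On slide 2 alone it was 0 between controls, under FB1 and for the difference. Each slide holds 2 arrays per group. With the replicate block it was 1 with FB1 in WT (Cd24a, adjusted p = 0.0451), and no other call changed. Same-numbered arrays did not deviate together (r from -0.20 to 0.24 over 36 pairs, 5 above 0.1, and 2 of 24 arrays closest to their own number). A pairing of the mice by number was thus not seen in the values, which cannot exclude one. Without single arrays the count ranged from 0 to 1 with FB1 in WT, from 2 to 4 with FB1 in KO, from 1 to 2 between controls and from 1 to 2 for the difference.

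Signs changed only for differences that had not passed. For Krt19 with FB1 in WT the value was -0.028 by quantile normalisation, -0.00047 in the authors' values and -0.36 on slide 1, and ranged from -0.042 to 0.17 without single arrays. Slide 1 alone gave 0.43 (Krt23) and -0.062 (Krt7) with FB1 in WT, -0.050 (Cldn7) with FB1 in KO, -0.12 (Krt19) and -0.094 (Krt7) between controls, -1.28 (Tff3) under FB1 and 0.28 (Epcam) for the difference. Slide 2 alone gave -0.19 (Epcam) and -0.12 (Krt23) with FB1 in KO, -0.0078 (Cldn7), -0.15 (Krt19), -0.42 (Krt7) and -0.059 (Sox9) between controls, and -0.14 (Epcam) and -1.03 (Tff3) under FB1. Slide 3 alone gave -0.049 (Krt23) with FB1 in KO, -0.12 (Cd24a), -0.031 (Cldn7) and 0.52 (Krt23) between controls, and 0.15 (Cd24a) and -0.24 (Krt7) for the difference, and there Tff3 passed under FB1 (2.60, adjusted p = 0.00544) while Cldn7 did not (0.41, adjusted p = 0.121), which left the count at 2. With array weights the controls differed by -0.013 (Krt19) and -0.022 (Krt7). The other probes, chosen after seeing the data, gave -0.091 (Sox9) between controls and 0.014 (Cd24a) for the difference. Without single arrays the ranges were -0.11 to 0.18 (Krt19) and -0.14 to 0.23 (Krt7) between controls, -0.23 to 0.38 (Tff3) under FB1 and -0.070 to 0.21 (Epcam) with FB1 in KO. The causes were not tested. With FB1 in KO the called genes among the 27 duct genes numbered from 3 to 16 over all settings, against 11. The difference of responses over all genes had 1064 higher and 755 lower calls in the authors' values, against 985 and 1070. Dim probes (Epcam, and Tff3 in KO controls) limit the smallest difference that can be seen.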
